A study of Mus musculus with 24 samples.

Results

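The disease-associated microglia genes described here are 10 genes that microglia, the resident macrophages of the brain, raise around amyloid plaques, demyelinated lesions and dying neurons: Spp1, Gpnmb, Igf1, Itgax, Clec7a, Cst7, Lgals3, Cd63, Cd9 and Ch25h. They were taken as a list of names from 35519 genes with a transcript in the data, and all 10 had reads. RNA was measured in 24 libraries of 1000 cells each, sorted from whole brain of C57BL/6 mice as Ly6C-CD11b+Fcrls+ cells, in which the gate Ly6C- is meant to leave out monocytes. The mice were knockouts (NL4-/-) for neuroligin-4, which helps join synapses, or wild type (WT), and were male or female. Each sex and genotype gave 4 libraries labelled phagocytosis and 2 labelled control, and what the cells engulfed, or where, is not stated in the labels. The groups are therefore male NL4-/-, male WT, female NL4-/- and female WT, each in the phagocytosis state and in the control state. No age is given in the labels.

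In mouse brain the disease-associated programme is known as a state in which microglia lower their resting genes and raise genes for lysosomes, lipid handling and adhesion, and its later steps depend on the lipid receptor TREM2. The 10 genes cover several roles. Lgals3 encodes galectin-3, a sugar-binding lectin that gathers on damaged lysosomes. Spp1 (osteopontin) and Igf1 (insulin-like growth factor 1) encode secreted factors, and Gpnmb encodes a transmembrane glycoprotein of phagosomes and lysosomes. Clec7a (dectin-1) and Itgax (the integrin chain CD11c) encode surface receptors. Cst7 (cystatin F) encodes an inhibitor of lysosomal cathepsins, Cd63 and Cd9 encode tetraspanins, membrane proteins of late endosomes and the cell surface, and Ch25h encodes the enzyme that makes 25-hydroxycholesterol.

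The largest differences between the states lay in Lgals3, Ch25h and Spp1 among the members tested with a fold that had a standard error. For each, the 250 bases before a RefSeq start site are shown so that the letters can be read beside the levels. The sequences are from the RefSeq annotation of GRCm38.p6. They lie at chr14:47373610-47373859 on the plus strand for Lgals3, chr19:34475149-34475398 on the minus strand for Ch25h and chr5:104434861-104435110 on the plus strand for Spp1. The lines run 5′ to 3′, end 1 base before the start site, and show in capitals the matches to the motifs named after them.
Lgals3: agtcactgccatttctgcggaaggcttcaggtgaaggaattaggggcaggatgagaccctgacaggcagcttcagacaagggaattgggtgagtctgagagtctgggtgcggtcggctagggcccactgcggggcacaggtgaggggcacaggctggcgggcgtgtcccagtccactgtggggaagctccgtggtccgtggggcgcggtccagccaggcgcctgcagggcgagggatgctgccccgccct
Ch25h: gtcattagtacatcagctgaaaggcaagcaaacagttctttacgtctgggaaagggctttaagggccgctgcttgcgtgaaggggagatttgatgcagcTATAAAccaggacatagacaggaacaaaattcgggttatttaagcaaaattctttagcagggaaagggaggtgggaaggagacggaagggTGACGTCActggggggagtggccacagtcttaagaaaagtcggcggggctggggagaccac
Spp1: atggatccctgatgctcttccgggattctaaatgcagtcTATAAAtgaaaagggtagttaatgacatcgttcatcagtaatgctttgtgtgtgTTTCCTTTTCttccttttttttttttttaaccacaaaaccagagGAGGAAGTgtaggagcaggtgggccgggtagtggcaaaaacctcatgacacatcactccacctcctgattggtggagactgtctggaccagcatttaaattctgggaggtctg
The Lgals3 start site used by RefSeq lies inside the gene as GENCODE draws it. Ch25h held the cyclic AMP element TGACGTCA 61 bases before its start and TATAAA at 151 bases. Spp1 held the PU.1 motif GAGGAAGT at 113 bases, a match to the core of the interferon-stimulated response element (ISRE), read on the other strand, at 157 bases, and TATAAA at 211 bases. The Lgals3 stretch held no match to any of 8 motifs. RefSeq lists another start site for Spp1. The 250 bases before that site, at chr5:104435942-104436191 on the plus strand, also held no match to the 8 motifs and are not shown.

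Of 32851 promoters of the same length, 2.44% held GAGGAAGT, 1.55% held TGACGTCA, 2.98% held the ISRE core and 12.4% held TATAAA, on either strand. The members had 12 promoters in the table. The AP-1 motif TGANTCA was in those of Itgax and Igf1 (6.75% of all promoters), and the NF-kB motif was in that of Cd9 (1.41%). The E-box CACGTG (6.02%) and the M-box TCATGTGA (0.846%), which transcription factors of the MITF and TFEB family bind, were in 0 of the 12. These are matches of letters in short windows, none of the motifs overlapped another in these windows, and nothing on binding was measured.

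The genes lie on 7 chromosomes of GRCm38. By GENCODE they are at chromosome 5, 104435118 to 104441050 (Spp1, plus strand), chromosome 6, 49036546 to 49070929 (Gpnmb, plus), chromosome 6, 129461591 to 129472779 (Clec7a, minus) and chromosome 6, 125460266 to 125494791 (Cd9, minus). Lgals3 is at chromosome 14, 47367751 to 47386160 (plus), Ch25h at chromosome 19, 34473778 to 34475164 (minus) and Cst7 at chromosome 2, 150570415 to 150578944 (plus). Igf1 (87858265 to 87937042) and Cd63 (128900989 to 128912822) are on the plus strand of chromosome 10, and Itgax (128129547 to 128150657) is on the plus strand of chromosome 7. None of the 10 overlaps another annotated gene, which matters because the libraries carry no strand. The reads were assigned to spliced transcripts, so values stand for exons.

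Total counts per library ran from 421107 to 1013797. Levels are in CPM, counts scaled to a library total of 1000000, and a gene at 10 CPM thus had about 4 to 10 reads. The microglial marker Csf1r and Fcrls, on which the cells were sorted, were high in every library. They had 3475 to 10920 CPM and 1822 to 3521 CPM in phagocytosis libraries. In control libraries they had 8258 to 11450 CPM and 3165 to 3783 CPM. Summed reads of Ddx3y and Eif2s3y, which lie on the Y chromosome, were 7 to 37 in each male library and 0 to 2 in each female library. The transcript set held no transcript of the knocked-out gene, so the genotype labels could not be checked. Transcripts of the mouse major satellite repeat took 23.2%, 22.1% and 21.4% of the reads in male WT control 2, female NL4-/- control 1 and male NL4-/- control 1, against 4.06 to 12.6% in the other 5 controls and 1.52 to 16.3% in phagocytosis libraries. For genes given below with a call of their own, a call lost without these 3 controls is named.

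Averaged over the 4 combinations of sex and genotype, 8 of the 9 members that could be tested rose in phagocytosis libraries and 0 fell (edgeR quasi-likelihood test, Benjamini-Hochberg adjusted p under 0.05). Over all 9803 genes tested, 13.6% were called, and 8.41% were called higher. The members were chosen with earlier results of these data known. The members' median log2 fold change was 1.74, beside -0.01 over all genes tested. Lgals3 rose most among the members with a standard error (log2 fold change 4.40 ± 0.40 SE), followed by Ch25h, Spp1, Clec7a, Itgax, Cst7 and Cd63, which had 0.94 ± 0.12. Gpnmb also passed, but with 5 reads in controls it met the expression filter through phagocytosis libraries. Cd9 had 0.35 ± 0.12 (adjusted p = 0.0592) and did not pass, and Igf1 had too few reads for the expression filter. In these bulk libraries, more cells of a kind and more RNA per cell cannot be told apart. Without the 3 controls high in satellite reads, Lgals3, Cd63 and Ch25h passed and the other members did not. That fit leaves 1 control each in male NL4-/-, male WT and female NL4-/- mice. Spp1, Clec7a, Itgax and Cst7 then had 3.13 ± 0.98, 1.60 ± 0.63, 1.52 ± 0.47 and 1.09 ± 0.39, and Gpnmb had 4.45. With all 24 libraries they had 2.98 ± 0.68, 1.74 ± 0.47, 1.12 ± 0.34 and 1.01 ± 0.29, and Gpnmb had 3.50. The p-values are two-sided.

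**Figure D1:**
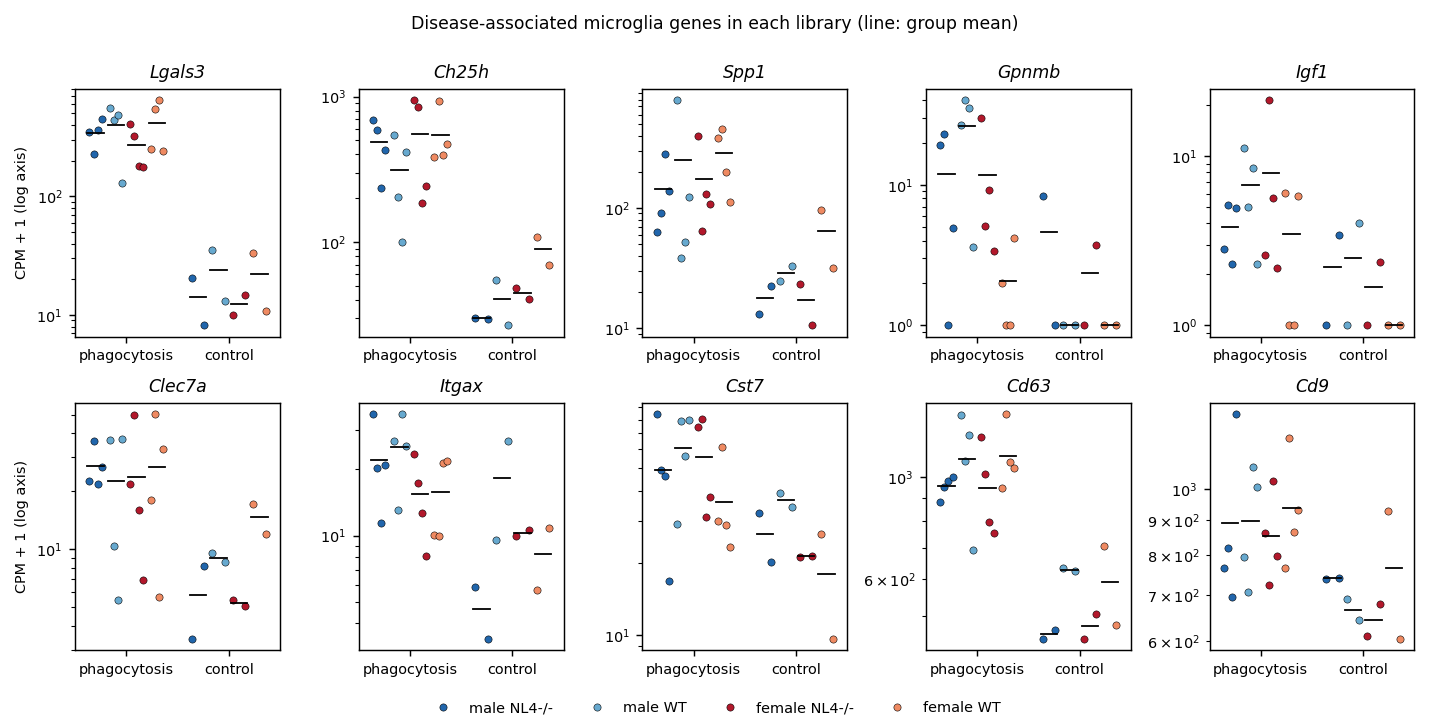
Level of each of the 10 genes in each library (points, CPM + 1 on a log axis), phagocytosis on the left and control on the right of each panel, coloured by sex and genotype, with black lines at group means. The Lgals3 points of the 2 states do not overlap (129 to 643 CPM in phagocytosis, 7.19 to 34.15 CPM in control), whereas those of the other 9 genes do.

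Lgals3 had 344, 225, 359 and 449 CPM in the 4 male NL4-/- phagocytosis libraries and 555, 438, 480 and 129 CPM in the male WT ones. Female NL4-/- phagocytosis libraries had 404.5, 323, 177.5 and 174 CPM, and female WT ones had 248, 539, 643 and 240.5 CPM. The controls had 19.4 and 7.19 CPM (male NL4-/-), 34.15 and 12.1 CPM (male WT), 8.99 and 13.65 CPM (female NL4-/-), and 32.5 and 9.82 CPM (female WT). Every phagocytosis library stood above every control library. That was so for 78 genes, or 0.796% of the genes tested. The pooled reads were 3863 in phagocytosis and 85 in control libraries, a ratio of 19.6 after scaling by depth (95% interval 15.8 to 24.5, exact, counting error only). The rise passed in the mean of the groups (adjusted p = 8.31e-07) and in each group alone, with adjusted p of 0.0136 in male NL4-/-, 0.0196 in male WT, 0.0168 in female NL4-/- and 0.00844 in female WT mice. The log2 fold changes in those groups were 4.67 ± 0.86, 4.17 ± 0.77, 4.49 ± 0.83 and 4.27 ± 0.74. The shares of all genes called in the same 4 comparisons were 0.602%, 0.326%, 0.459% and 0.581%, and the shares called higher were 0.5%, 0.316%, 0.408% and 0.541%. With either control of a group left out, which leaves 1 control there, Lgals3 did not pass in that group, while in the mean of the groups it passed with any 1 of the 24 libraries left out (4.26 to 4.69). Without the 3 controls high in satellite reads, and with phagocytosis numbers 3 and 4 alone, it passed in female WT mice and not in the other 3 groups.

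Of the genes around galectin-3, 4 of 8 galectins could be tested and 2 rose, Lgals3 itself and Lgals1. Beside them, 8.41% of all 9803 genes tested were called higher. Lgals1 (galectin-1) averaged 115 ± 66.9 CPM in phagocytosis libraries (SD, n = 16) and 9.75 ± 5.76 CPM in controls (SD, n = 8; 3.56 ± 0.41, adjusted p = 7.97e-06). Lgals9 had 0.12 ± 0.11 and Lgals8 had 0.15 ± 0.18 (adjusted p = 0.548 and 0.648). Lgals3bp, which encodes a glycoprotein bound by galectin-3, averaged 731 ± 283 CPM in phagocytosis libraries and 348 ± 108 CPM in controls (adjusted p = 0.00479), a call that was lost without the 3 controls high in satellite reads. Mertk, which encodes an uptake receptor for apoptotic cells that galectin-3 can bind, fell (-0.53 ± 0.13, adjusted p = 0.00566), and that call was lost in the same way.

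Ch25h had 686, 588, 236 and 429 CPM in male NL4-/- phagocytosis libraries and 540, 201.5, 98.4 and 413 CPM in male WT ones. Female NL4-/- phagocytosis libraries had 942, 842, 186 and 243 CPM, and female WT ones had 381, 929, 393 and 468 CPM. The controls had 29.1 and 28.8 CPM (male NL4-/-), 53.4 and 25.7 CPM (male WT), 47.2 and 39.6 CPM (female NL4-/-), and 106.9 and 68.7 CPM (female WT). In 15 of 16 phagocytosis libraries Ch25h stood above all 8 controls, the exception being male WT phagocytosis 3. Ch25h rose by 3.34 ± 0.44 in the mean of the groups (adjusted p = 8.79e-05). Within the groups its log2 fold changes were 4.06 ± 0.95, 3.02 ± 0.87, 3.67 ± 0.88 and 2.62 ± 0.79 in male NL4-/-, male WT, female NL4-/- and female WT mice, with adjusted p of 0.0718, 0.284, 0.0931 and 0.171. With DESeq2 it passed in all 4 groups, with adjusted p of 1.46e-05, 0.00628, 5.37e-05 and 0.0113 in the same order. Phagocytosis libraries numbered 1 and 2 had a median of 637 CPM and those numbered 3 and 4 a median of 318 CPM. The numbers follow the labels, which do not say what they stand for.

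The product of Ch25h is a ligand of the liver X receptors and a suppressor of sterol synthesis, and it is turned by another enzyme into the ligand of the receptor Gpr183. Of these partners, Abca1, a cholesterol exporter and liver X receptor target, rose by 0.54 (adjusted p = 0.0138), a call lost without the 3 controls high in satellite reads (0.65, adjusted p = 0.0582). Abcg1, of the same kind, had 0.34 (adjusted p = 0.0745), Gpr183 had -0.42 (0.0745), Nr1h2, which encodes a liver X receptor, had -0.03 (0.918) and Insig1, which holds back sterol synthesis, had -0.22 (0.673). Nr1h3, the other liver X receptor gene, had too few reads to test, with 45 in phagocytosis and 14 in control libraries.

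Spp1 had 61.6, 90.4, 281 and 136 CPM in male NL4-/- phagocytosis libraries and 786, 37.6, 50.7 and 123 CPM in male WT ones. Female NL4-/- phagocytosis libraries had 398, 63.0, 129.9 and 108 CPM, and female WT ones had 384, 449.8, 199 and 112 CPM. The controls had 12.1 and 21.6 CPM (male NL4-/-), 23.5 and 31.8 CPM (male WT), 22.5 and 9.555 CPM (female NL4-/-), and 95.3 and 30.7 CPM (female WT). Each phagocytosis library stood above both controls of its own sex and genotype, and 11 of 16 stood above all 8 controls. Spp1 rose by 2.98 ± 0.68 in the mean of the groups (adjusted p = 0.00773), but in none of the 4 groups alone, where the fold changes ran from 2.17 to 3.53 and the adjusted p from 0.444 to 0.541. Spp1 varied widely among phagocytosis libraries, with a coefficient of variation of 0.948 beside 0.193 for Cd63. Without the 3 controls high in satellite reads its change was 3.13 ± 0.98 (adjusted p = 0.0991).

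Osteopontin binds CD44 and integrins. Cd44 averaged 67.9 ± 27.9 CPM in phagocytosis libraries and 5.55 ± 4.73 CPM in controls (log2 fold change 4.08 ± 0.45, adjusted p = 9.01e-07), with 734 and 30 reads. The integrin chain Itgb3 averaged 37.5 ± 14.0 CPM in phagocytosis libraries and 69.4 ± 15.9 CPM in controls (-0.89 ± 0.19, adjusted p = 0.00216), and was not called without the 3 controls high in satellite reads. Itgb5 also fell (-0.37, adjusted p = 0.03), and did so without those 3 controls (-0.50, adjusted p = 0.0353). Its partner chain Itgav had 0.10 (0.806) and Itgb1 had 0.18 (0.51). The receptors of this ligand thus did not all move one way.

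Gpnmb had 18.1, 21.9, 0 and 3.95 CPM in male NL4-/- phagocytosis libraries and 25.9, 39.0, 34.3 and 2.58 CPM in male WT ones. Female NL4-/- phagocytosis libraries had 28.8, 4.07, 8.12 and 2.37 CPM, and female WT ones had 1.00, 0, 0 and 3.21 CPM. Of the 8 controls 6 had no Gpnmb read, and the others were male NL4-/- control 1 at 7.28 CPM and female NL4-/- control 2 at 2.73 CPM. The 13 phagocytosis libraries with a read held 137 reads in all, and the 2 controls held 5. The depth-scaled ratio of those reads was 11.8 (95% interval 4.93 to 36.9, counting error only). Gpnmb passed in the mean of the groups (adjusted p = 0.0313). It failed in 8 of the 24 fits with 1 library left out, among them those without female WT control 1 or 2, male WT control 1 or 2, female NL4-/- control 1, male NL4-/- control 2, and female WT phagocytosis 1 or 4 (adjusted p up to 0.127). The state call on Gpnmb thus rests on few reads. Phagocytosis libraries numbered 1 and 2 had a median of 20.02 CPM and those numbered 3 and 4 a median of 2.89 CPM, and with numbers 3 and 4 alone Gpnmb failed the expression filter and was not tested. Mitf, Tfeb and Tfe3, which encode transcription factors known to drive Gpnmb in other cells, had -0.15, -0.09 and -0.28 (adjusted p = 0.71, 0.842 and 0.155).

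Igf1, the growth factor among the members, was read in 14 of 16 phagocytosis libraries (49 reads, 0 to 20.3 CPM, median 3.99) and in 3 of 8 controls (4 reads, 0 to 3.03 CPM). The highest value was in female NL4-/- phagocytosis 2. The depth-scaled ratio of the pooled reads was 5.27 (95% interval 1.93 to 20.1, counting error only). Igf1 failed the expression filter and was not tested in the main comparison. With no filter its adjusted p was 0.0561 in the mean of the groups, and with counts scaled by transcript length it was 0.0409. Its receptor gene Igf1r had -0.36 (adjusted p = 0.38), and Insr, the insulin receptor gene, fell (-0.49, adjusted p = 0.0191), a call lost without the 3 controls high in satellite reads (adjusted p = 0.106). Igfbp4, which encodes a binding protein of the factor, had 0.81 (adjusted p = 0.0592).

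Clec7a ran from 4.47 to 49.2 CPM in phagocytosis libraries (median 21.3) and from 2.43 to 16.3 CPM in controls (median 7.38). In 11 of 16 phagocytosis libraries it exceeded all controls, and 3 lay below the control median. It rose by 1.74 ± 0.47 (adjusted p = 0.0127), and had 254 reads in phagocytosis and 41 in control libraries. The signalling genes downstream of dectin-1 did not rise. Syk, a kinase gene, fell (-0.36, adjusted p = 0.0463), Card9 had -0.39 (0.102), Bcl10 had -0.20 (0.43) and Malt1 had 0.12 (0.813). Without the 3 controls high in satellite reads Syk did not pass (adjusted p = 0.126). Clec7a did not pass without those controls (1.60 ± 0.63, adjusted p = 0.164) or with phagocytosis numbers 3 and 4 alone (1.32 ± 0.47, adjusted p = 0.0831). GENCODE lists mouse Clec7a as a polymorphic pseudogene, a class for genes that are intact in some strains or individuals and not in others.

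Itgax ran from 7.11 to 34.4 CPM in phagocytosis libraries (median 19.5) and from 2.40 to 25.7 CPM in controls (median 8.77). The groups overlapped, with 3 of 16 phagocytosis libraries above all controls. Itgax rose by 1.12 ± 0.34 (adjusted p = 0.0241). Its integrin partner Itgb2 had 0.01 (adjusted p = 0.961), and Itgam (CD11b), the chain used in the sort and another alpha partner of Itgb2, had -0.20 (0.27). The Itgax call was lost with length-scaled counts (adjusted p = 0.053), with phagocytosis numbers 3 and 4 alone (adjusted p = 0.063), without the 3 controls high in satellite reads (adjusted p = 0.0582), and without female WT control 1, male WT control 1 or male NL4-/- control 2 (adjusted p up to 0.0707).

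Cst7 ran from 15.8 to 83.3 CPM in phagocytosis libraries (median 46.6) and from 8.59 to 38.4 CPM in controls (median 23.02). It rose by 1.01 ± 0.29 (adjusted p = 0.0211), with 9 of 16 phagocytosis libraries above all controls. Libraries numbered 1 and 2 had a median of 66.99 CPM, and those numbered 3 and 4 had 33.5 CPM. With numbers 3 and 4 alone the change was 0.63 ± 0.25 (adjusted p = 0.122). The call was also lost without female WT control 2, male WT control 2 or male NL4-/- control 2 (adjusted p up to 0.0689). The proteases that cystatin F acts on, or that process it, did not pass: Ctsc had 0.22 (adjusted p = 0.301), Lgmn had -0.13 (0.497) and Ctsh had -0.27 (0.0976).

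Cd63 ran from 693 to 1365 CPM in phagocytosis libraries (median 1006) and from 444 to 705 CPM in controls (median 489.9). In 15 of 16 phagocytosis libraries it stood above all controls, and male WT phagocytosis 4 was the exception. It rose by 0.94 ± 0.12 in the mean of the groups (adjusted p = 4.29e-06), and in male NL4-/- mice alone by 1.07 ± 0.25 (adjusted p = 0.0389). The group values in male WT, female NL4-/- and female WT mice were 0.80 ± 0.24, 0.99 ± 0.25 and 0.90 ± 0.25 (adjusted p = 0.268, 0.0703 and 0.0867). The call in male NL4-/- mice was lost in 7 of the 24 fits with 1 library left out, namely without any of the 6 libraries of that sex and genotype or without female WT phagocytosis 3. Cd63 has the lowest spread of the 10 genes in phagocytosis libraries (coefficient of variation 0.193).

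Cd9 ran from 695 to 1285 CPM in phagocytosis libraries (median 839) and from 603 to 928 CPM in controls (median 684), and 6 of 16 phagocytosis libraries stood above all controls. Its change of 0.35 ± 0.12 had an adjusted p of 0.0592 by edgeR and of 0.0292 by DESeq2. It passed in 9 of the 24 fits with 1 library left out. Over all 9803 genes tested, 8.41% were called higher and 508 were called lower. Among 16 tetraspanins tested of 20, Cd63, itself a member, was the one that rose. Tspan9 (-0.82 ± 0.18, adjusted p = 0.0022), Tspan13 (-0.60 ± 0.16, adjusted p = 0.0101) and Cd82 (-0.57 ± 0.16, adjusted p = 0.0187) fell, and the list's median was -0.34. The calls of Tspan13 and Cd82 were lost without the 3 controls high in satellite reads and with phagocytosis numbers 3 and 4 alone, and those of Tspan9 and Tspan13 with length-scaled counts. Cd81, the tetraspanin with the most reads, had -0.36 (adjusted p = 0.0887). The pseudogenes Cd63-ps and Cd9-ps had 11 reads and 1 read in all.

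**Figure D2:**
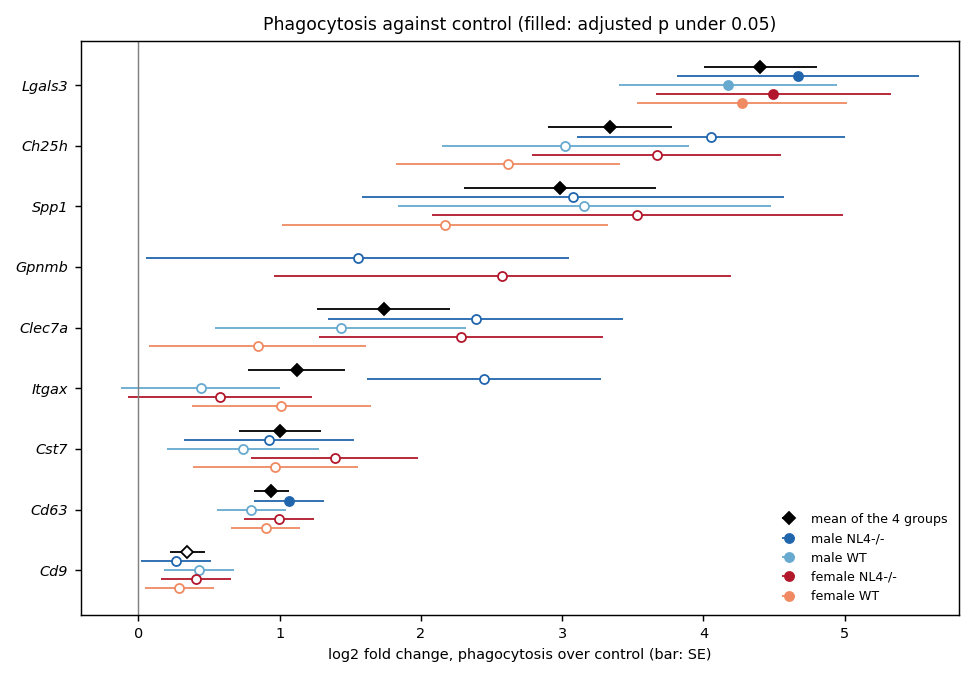
Log2 fold change of phagocytosis over control for the 9 members tested (bars, SE), averaged over the 4 combinations of sex and genotype (black diamonds) and within each group (circles), filled where the edgeR adjusted p was under 0.05. Gpnmb is drawn where a standard error could be had, since groups with 0 reads give none, and Lgals3 is the member filled in all 4 groups.

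By relative abundance per transcript length (TPM), the median order in phagocytosis libraries was Cd63 (1075), Cd9 (791), Lgals3 (372), Ch25h (359), Spp1 (122), Cst7 (41.0), Clec7a (25.7), Itgax (3.47), Igf1 (3.15) and Gpnmb (1.89). The ranges over the 16 libraries overlapped between every pair of neighbours in that order. In controls the median order began with Cd9 (530), Cd63 (420), Ch25h (28.6), Cst7 (16.4), Spp1 (14.3), Lgals3 (8.93), Clec7a (6.75) and Itgax (1.28). Igf1 and Gpnmb both had a median of 0 there. Lgals3 thus stood above Ch25h in phagocytosis libraries and below Spp1 in controls, whereas Cd63 and Cd9 stood above the other 8 in both states.

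Genotype was compared within each sex and state, which asks whether the loss of neuroligin-4 goes with a different level of these genes. In none of the 4 comparisons was a member called by edgeR, and 0% of all genes were called in each. At an unadjusted p under 0.05, 0 members passed in male phagocytosis, 1 in female phagocytosis, 1 in male control and 0 in female control libraries. Of all 9803 genes tested, 465, 510, 328 and 210 had such a p, in the same order. DESeq2 called 0 members in each. The members' median log2 fold change of NL4-/- over WT was -0.22 in male phagocytosis, -0.13 in female phagocytosis, -0.49 in male control and -0.32 in female control libraries.

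For Lgals3, NL4-/- mice averaged 344 ± 92.0 CPM and WT mice 400 ± 187 CPM in male phagocytosis libraries (n = 4 each, -0.22, 95% interval -1.10 to 0.66). In female phagocytosis libraries NL4-/- mice averaged 269.9 ± 114 CPM and WT mice 418 ± 205 CPM (-0.63, 95% interval -1.52 to 0.26). The libraries of the 2 genotypes overlapped in both sexes. For Cd63, whose estimate is the tightest, the intervals were -0.57 to 0.18 in males and -0.60 to 0.15 in females. For Ch25h they were -0.47 to 1.72 in males and -1.06 to 1.11 in females, and for Spp1 -2.46 to 0.84 and -2.35 to 0.93. The intervals of Lgals3, Ch25h and Spp1 thus reach past 1 log2 unit in both sexes.

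Gpnmb was the member with an unadjusted p under 0.05 in phagocytosis libraries, in females. In female phagocytosis libraries NL4-/- mice averaged 10.8 ± 12.2 CPM with 29 reads, and WT mice averaged 1.05 ± 1.51 CPM with 3 reads, a depth-scaled ratio of 9.29 (95% interval 2.88 to 47.6, counting error only). The edgeR log2 fold change was 3.08 ± 1.30 (adjusted p = 0.938). In male phagocytosis libraries NL4-/- mice averaged 11 ± 10.7 CPM with 28 reads and WT mice 25.4 ± 16.2 CPM with 77 reads, a ratio of 0.437 (95% interval 0.273 to 0.682), and the fold change was -1.19 ± 0.87 (adjusted p = 1). The genotype difference had opposite signs in the 2 sexes, and the test of that difference, male minus female, gave -4.27 ± 1.58 by edgeR (adjusted p = 0.977). It did not pass. The libraries of the groups overlapped in both sexes.

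Itgax was the member with an unadjusted p under 0.05 in controls. Male NL4-/- controls had 4.85 and 2.40 CPM (3 reads), and male WT controls had 8.54 and 25.7 CPM (21 reads), with a log2 fold change of -2.24 ± 0.91 (adjusted p = 1). The depth-scaled ratio was 0.194 (95% interval 0.0371 to 0.651, counting error only). Of the 21 male WT reads, 17 came from male WT control 2, a control high in satellite reads. In male NL4-/- mice phagocytosis over control gave 2.45 ± 0.83 for Itgax (adjusted p = 0.198), and in male WT mice 0.44 ± 0.56 (adjusted p = 0.888). The test of the difference between these 2 changes gave 2.01 ± 1.03 (adjusted p = 1). These comparisons share the same control libraries.

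**Figure D3:**
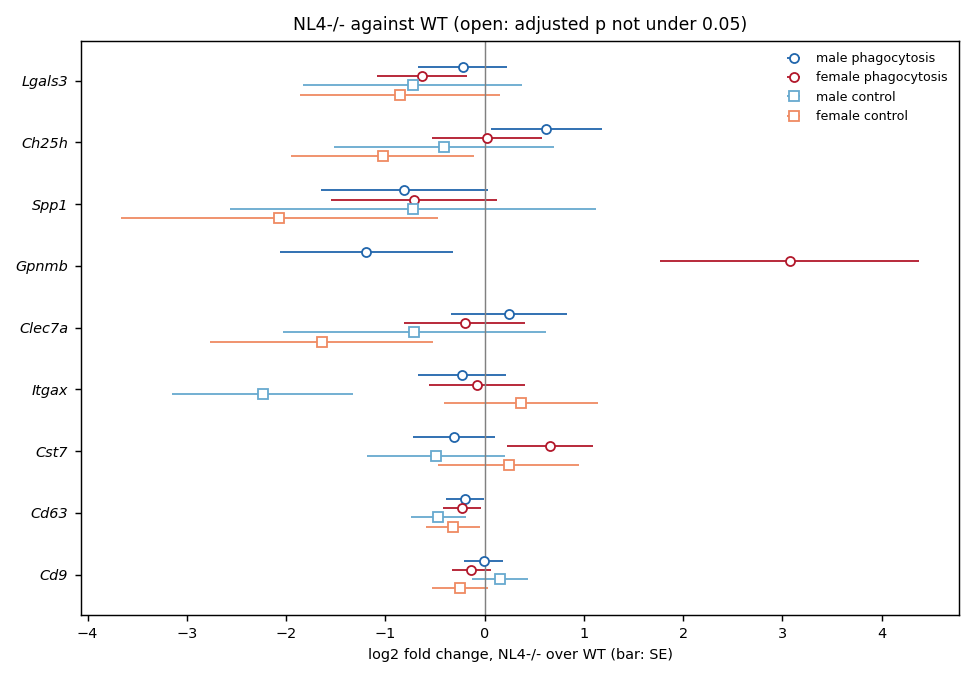
Log2 fold change of NL4-/- over WT for the 9 members tested (bars, SE), in phagocytosis libraries (circles) and control libraries (squares) of each sex. All symbols are open since no adjusted p was under 0.05, and Gpnmb is drawn for phagocytosis libraries, where it lies at 3.08 in females and -1.19 in males.

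Sex was compared in phagocytosis libraries of each genotype, where 4 stood against 4. No member was called by edgeR in either, beside 0.0102% of all genes in NL4-/- and 0.0204% in WT mice, and DESeq2 also called 0 members. At an unadjusted p under 0.05, 0 members passed in NL4-/- and 1 in WT mice, again Gpnmb. Of all 9803 genes tested, 226 in NL4-/- and 740 in WT mice had such a p. Male WT phagocytosis libraries held 77 Gpnmb reads and female WT ones 3, a depth-scaled ratio of 22.6 (95% interval 7.45 to 112, counting error only), and the fold change was 4.31 ± 1.21 (adjusted p = 0.46). With no filter on low counts the adjusted p was 0.000399. In NL4-/- mice male libraries held 28 reads and female ones 29, and the fold change was 0.04 ± 0.93.

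Whether the change with phagocytosis differed by genotype within a sex, or by sex over the genotypes, was tested by 3 interactions, and the genotype difference by sex in phagocytosis libraries by another. edgeR called 0 members and 0% of all genes in each, and DESeq2 called 0 members. At an unadjusted p under 0.05, 0 members passed in those 3 and 1, Gpnmb, in the other. Of all 9803 genes tested, such a p was found for 252 (genotype by state in females) and 246 (in males). It was found for 190 in sex by state and 467 in sex by genotype. For Lgals3 the change with phagocytosis differed between NL4-/- and WT by 0.50 ± 1.20 in males and 0.22 ± 1.11 in females, and between males and females by 0.04 ± 0.82. For Cd63 the same 3 differences were 0.27 ± 0.34, 0.09 ± 0.34 and -0.02 ± 0.24. The intervals for Lgals3 (-1.85 to 2.85, -1.958 to 2.40 and -1.57 to 1.65) come with 2 libraries in each control group.

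After the group means were taken out, the 9 tested members varied among libraries with little in common. Over the 24 libraries the 36 pairs had a median Pearson r of 0.16, and 26 were positive, given as a description since the points share depth and library preparation. Lgals3 and Cd63 had the highest r, 0.79, and Clec7a and Ch25h had 0.73. The lowest was -0.19 for Spp1 and Gpnmb. The library lowest in both Lgals3 and Cd63 relative to its group was male WT phagocytosis 4.

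**Figure D4:**
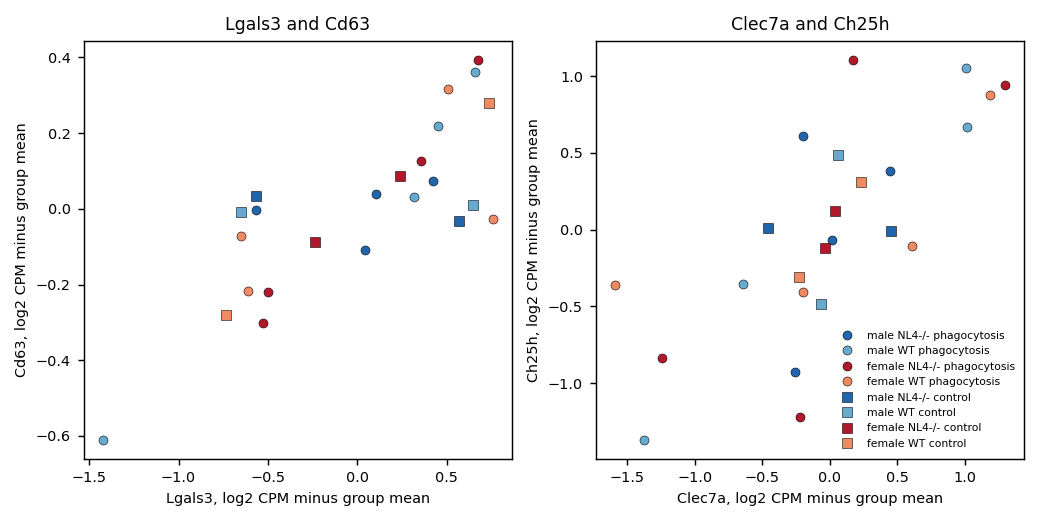
Log2 CPM of Lgals3 against Cd63 (left) and of Clec7a against Ch25h (right) in each of the 24 libraries after subtracting the mean of its group, circles for phagocytosis and squares for control. The points rise together in both panels (r of 0.79 and 0.73), and male WT phagocytosis 4 lies lowest on the left.

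The genes most like the mean of the standardised members over the 24 group-centred libraries were Impdh2 (r = 0.85), which makes guanine nucleotides, the ribosomal protein genes Rps18 and Rps19 (0.84 each) and Rpl3 (0.84), and the chemokine gene Ccl7 (0.84). The same mean had an r of 0.79 with the share of reads in 87 ribosomal protein genes, -0.46 with log total counts, -0.06 with the satellite share and -0.64 with the summed CPM of 7 microglial markers. These are values of composition and depth that moved with the members between libraries of 1 group, and their part in the members' levels was not tested.

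Other genes of the programme came from a list of 39, of which 32 could be tested. Of these 20 rose and 0 fell, with a median of 0.72 beside -0.01 over all genes. Of all 9803 genes tested, 8.41% were called higher. This list, like the others, was chosen with earlier results of these data known. The calls of Apoe, Axl, Ctsz, B2m, Lyz2, Csf1, Cd68 and Fabp5 were lost without the 3 controls high in satellite reads. Plin2, which coats lipid droplets, averaged 535 ± 150 CPM in phagocytosis libraries and 66.3 ± 21.7 CPM in controls (3.05 ± 0.18, adjusted p = 2.9e-12). Fth1 (ferritin heavy chain), Cybb (a subunit of the phagocyte oxidase) and Capg (an actin-capping protein) rose by 2.02 ± 0.18, 3.01 ± 0.29 and 2.41 ± 0.22. The receptor pair on which the later programme depends did not rise, with Trem2 at -0.37 (adjusted p = 0.0541) and its signalling partner Tyrobp at 0.01 (0.982). Of 27 tested partners of the members, 3 rose and 5 fell, with a median of -0.15. Of all 9803 genes tested, 824 rose and 508 fell. Without the 3 controls high in satellite reads, Cd44 and Itgb5 kept their calls and the other partners called did not.

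Homeostatic microglial genes went the other way: of 30 tested, 0 rose and 15 fell, with a median of -0.51. Of all 9803 genes tested, 508 were called lower. Mef2a (-0.66 ± 0.12), Tgfbr1 (-0.77 ± 0.17), Sall1 (-0.52 ± 0.12) and Rnase4 (-0.72 ± 0.17) had the lowest adjusted p (0.0005, 0.00265, 0.0035 and 0.00482). Mef2a and Sall1 encode transcription factors, Tgfbr1 a receptor for TGF-beta and Rnase4 a ribonuclease. Without the 3 controls high in satellite reads, Mef2a, Sall1 and Crybb1 kept their calls and the others of the 15 did not. Mef2a, Tgfbr1, Sall1 and Rnase4 then had -0.61, -0.66, -0.54 and -0.68. The call of Sall1 was lost with phagocytosis numbers 3 and 4 alone.

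Several of the members are also expressed by other macrophages, so markers of microglia and of other cells are given beside them. The marker Fcrls was also used in the sort. The microglial markers P2ry12, Tmem119, Cx3cr1, Csf1r, Siglech, Fcrls and Sall1 summed to 12070 to 30530 CPM in phagocytosis libraries (median 18400) and 22300 to 32040 CPM in controls (median 28360), with 0 of 7 higher on average in phagocytosis libraries. All 7 are also in the list of homeostatic genes above, so their falls were already counted there. Of these 7, Csf1r (-0.58 ± 0.16), Siglech (-0.80 ± 0.24), Fcrls (-0.44 ± 0.11) and Sall1 (-0.52 ± 0.12) fell (adjusted p = 0.0176, 0.0358, 0.00856 and 0.0035), beside 508 called lower of all 9803 genes tested. The calls of Csf1r, Siglech and Fcrls were lost without the 3 controls high in satellite reads. For border-associated macrophages, found in the meninges and along vessels, the 14 markers were all higher on average in phagocytosis libraries. Of 8 tested 7 rose, beside 8.41% called higher of all 9803 genes tested. The other markers of the list had too few reads to test. Pf4, Cbr2 and Ms4a7 had 3, 7 and 7 reads in controls, so they met the expression filter through phagocytosis libraries. Without Stab1, the most abundant, the sum of the markers was 192 to 582 CPM in phagocytosis libraries and 62.4 to 147 CPM in controls, which did not overlap. The defining genes Mrc1, Cd163, Pf4, Lyve1 and Cbr2 summed to 4.78 to 104 CPM (471 reads) in phagocytosis libraries and 2.31 to 10.1 CPM (33 reads) in controls. Siglec1 rose by 1.84 ± 0.34, Ms4a6c by 1.19 ± 0.24 and Stab1 by 0.52 ± 0.11 (adjusted p = 0.00168, 0.00218 and 0.00147), and Ms4a7 also passed (adjusted p = 0.00459, mean 11.2 CPM in phagocytosis libraries and 1.42 CPM in controls). The calls of Stab1, Mrc1, Pf4 and Cbr2 were lost without the 3 controls high in satellite reads. Over the group-centred libraries the sum without Stab1 had an r of 0.48 with the members' mean. Its part in the members' levels was not tested.

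Monocyte markers summed to 38.5 to 278 CPM in phagocytosis libraries and 18.5 to 105 CPM in controls, with 13 of 14 higher and 1 of 5 tested called, Plac8 (17.9 ± 21.0 CPM in phagocytosis libraries and 2.75 ± 2.65 CPM in controls, adjusted p = 0.0424). Plac8 did not pass without the 3 controls high in satellite reads (adjusted p = 0.238) or in 15 of the 24 fits with 1 library left out. The counts called in this paragraph stand beside 8.41% called higher, and 508 called lower, of all 9803 genes tested. Neuronal markers summed to 25.2 to 140 CPM in phagocytosis libraries and 12.3 to 28.9 CPM in controls, with 14 of 16 higher and 2 of 3 tested called, Uchl1 and Eno2. Uchl1 and Eno2 had at most 5.81 and 4.495 CPM in a control, so they met the expression filter through phagocytosis libraries. Oligodendrocyte markers summed to 180 to 392 CPM in phagocytosis libraries (180.2 the lowest) and 129 to 198 CPM in controls, with 8 of 15 higher. Of 5 tested 2 were called, Mbp and Cspg4, and the call of Mbp was lost without the 3 controls high in satellite reads. Astrocyte markers summed to 281 to 679 CPM in phagocytosis libraries and 318 to 476 CPM in controls. Endothelial markers summed to 575 to 831 CPM in phagocytosis libraries and 335 to 769.5 CPM in controls. Fibroblast and mural markers summed to 7.97 to 78.3 CPM in phagocytosis libraries and 2.25 to 13.9 CPM in controls. Of these lists 2 astrocyte genes, Gfap and Aldoc, rose and 1, Slc1a3, fell of 6 tested. The calls of Aldoc and Slc1a3 were lost without the 3 controls high in satellite reads. In the endothelial list 0 of 4 genes passed. The 1 fibroblast and mural gene tested, Cspg4, rose, and it is the same gene that was counted among the oligodendrocyte markers. Neutrophil markers summed to 289 to 631 CPM in phagocytosis libraries and 422 to 688 CPM in controls (0 rose and 1 fell of 4). Lymphocyte markers summed to 177 to 439 CPM in phagocytosis libraries and 255 to 570 CPM in controls (0 rose and 1 fell of 4), and dendritic cell markers to 289 to 471 CPM in phagocytosis libraries and 292 to 461 CPM in controls (0 of 6 passed). The neutrophil and lymphocyte genes that fell, Csf3r and Ighm, lost their calls without the 3 controls high in satellite reads. The endothelial gene Cldn5 was at 0 in all libraries. The part of these cells in the members' changes was not tested.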

How the data were processed

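RNA sequencing values of 24 Smart-Seq2 libraries were used. Per the file headers, each of the 116945 transcripts in a deposited file has its length, effective length, estimated read count (NumReads) and TPM. The deposited expected counts are raw and can be fractional. The authors' TPM are per effective length, with 1 common sum per library. Quantifier, index and read filtering: not given in the sources used here.

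Transcripts were matched to GENCODE vM21 (GRCm38). Of them 116023 matched, 99.67% with the same version, and the 922 that did not (0.274 to 0.379% of reads) were left out. Expected counts were summed per gene and rounded. Tests used edgeR 4.0.16 in R 4.3.3 (quasi-likelihood, robust, TMM, filterByExpr on groups at 10 counts), in 1 fit of 24 libraries with 8 group means. Benjamini-Hochberg adjustment ran over 9803 genes in each of 15 comparisons, with a threshold of 0.05. The common dispersion was 0.0812. Log2 fold changes carry a prior count of 0.125, and SE were worked back from the F statistic. CPM are TMM-scaled, except marker sums, which are scaled to the library total. Pooled ratios have exact 95% binomial intervals, which cover counting error only, since amplified reads carry no molecular identifiers. The code was tested on simulated data.

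The authors' TPM and effective lengths served to order levels and, in edgeR, for the length-scaled alternative. DESeq2 1.42.0, other size factors, no filter, a replicate block, single libraries left out, phagocytosis numbers 3 and 4 alone, and the loss of the 3 controls highest in satellite reads were the other alternatives. Phagocytosis numbers 1 and 2 alone were added after the data were seen. The members, gene lists and motifs were chosen with earlier results of these data known. Named genes are all members, up to 4 per list with the lowest adjusted p, and the 5 protein-coding genes most correlated with the members' mean; partners of a member and other genes named outside this rule (Trem2, Tyrobp, Cd81) were picked by their role. 1 gene of the lists is not reported here. Samples are biological replicates per the design text, which gives 5 per phagocytosis group, and the fifth is not analysed here. Same-numbered libraries of different groups did not deviate together (median r 0.004 over 68 pairs, 6 of them over 0.1), so the numbers were not taken as pairs.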

Additional observations from a re-analysis of the deposited data

Results flagged for a closer look

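In the 40 sets of 4 phagocytosis libraries (10 genes in 4 groups), 2 had a library far from the other 3 by Dixon's test, where chance gives about 1 in 20.

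Spp1 reached 786 CPM in male WT phagocytosis 1, against 37.6 to 123 CPM in the other 3 libraries of that group, a gap of 0.886 of the group's range. Without that library the Spp1 change in the mean of the groups was 2.56, the lowest with any library left out, and it still passed. Ch25h reached 929 CPM in female WT phagocytosis 2, against 381 to 468 CPM in the other 3, a gap of 0.841 of the range. Without that library its change was 3.25, and it still passed.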

How the results depend on the processing

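The direction of the 8 called members was the same under every alternative in which they were tested (Gpnmb was not tested with phagocytosis numbers 3 and 4 only), and Lgals3, Cd63 and Ch25h kept their calls in the mean of the groups under all of them. Of 47 gene results (named genes in the mean of the groups, and single-group calls), 26 lost their call without the 3 controls highest in satellite reads. Of the 44 that could be tested with phagocytosis numbers 3 and 4 only, 14 lost it. Losses numbered 6 with length-scaled counts, 2 with no filter and 2 with the replicate block, and Cd9 gained a call with other size factors, no filter, DESeq2 and numbers 3 and 4 only. Over the 24 fits with 1 library left out, 90 calls were lost. The cause of these changes was not tested.

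In the mean of the groups, 8 members and 1332 genes passed. The counts were 880 genes with length-scaled counts, 782 genes and 5 members with phagocytosis numbers 3 and 4 only, and 410 genes and 3 members without the 3 controls. With 1 library left out they ran from 781 to 1508 genes and from 5 to 9 members, lowest without female WT control 2 (genes) and male NL4-/- control 2 (members).

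Within single groups counts moved more. Where a control group is left with 1 library, that library is assumed to vary like the other groups. Given for male NL4-/-, male WT, female NL4-/- and female WT, the counts were 59, 32, 45 and 57 genes. They were 146, 70, 152 and 192 with DESeq2, 160, 99, 176 and 269 with no filter, and 157, 94, 315 and 119 with phagocytosis numbers 1 and 2 only. With numbers 3 and 4 only, male WT had 51, female NL4-/- 18 and female WT 152, and with length-scaled counts female WT had 32. Without the 3 controls the first 3 groups had 1, 0 and 3. With 1 library left out the ranges were 1 to 66, 0 to 58, 3 to 70 and 1 to 86. The members called were 2, 1, 1 and 1. In male WT, female NL4-/- and female WT they were 2, 4 and 3 with DESeq2, 2, 2 and 2 with no filter, and 3, 5 and 2 with numbers 1 and 2 only. With numbers 3 and 4 only they were 1, 0 and 0 in the first 3 groups, and without the 3 controls 0, 0 and 0. With 1 library left out the ranges were 0 to 3, 0 to 2, 0 to 3 and 0 to 2.

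Over all genes, same-numbered libraries of different groups did not deviate together. That check does not ask whether numbers 1 and 2 differ as a set from numbers 3 and 4. All controls carry number 1 or 2. With the replicate block the same 4 gene counts were 167, 61, 104 and 293, and the members called in male WT, female NL4-/- and female WT were 2, 3 and 3. Ch25h then passed in male NL4-/-, male WT, female NL4-/- and female WT (adjusted p = 0.00376, 0.0253, 0.00668 and 0.011). Cd9 had an adjusted p of 0.265 and Itgax of 0.0539 in the mean of the groups.

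For genotype, 0 genes were called in each comparison. In male phagocytosis, female phagocytosis, male control and female control there were 7, 19, 8 and 11 with no filter, and 1, 4, 1 and 4 with numbers 3 and 4 only. DESeq2 called 3 in female phagocytosis, 5 in male control and 4 in female control. Numbers 1 and 2 only gave 1 in male phagocytosis, male control and female control, and length-scaled counts and the loss of the 3 controls gave 1 each in female control. With 1 library left out these ran from 0 to 0, 0 to 1, 0 to 2 and 0 to 2. For sex, NL4-/- had 1 gene (2 with DESeq2, 9 with no filter, 1 to 1 with 1 library left out) and WT had 2 (7 with DESeq2, 29 with no filter, 0 with length-scaled counts or with either pair of numbers, 0 to 3 with 1 library left out). Gpnmb was the 1 member called there with no filter.

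For the interactions 0 genes were called. For genotype by state in females there were 4 with DESeq2, 7 with no filter, 4 with numbers 3 and 4 only and 1 without the 3 controls. In males there were 2 with DESeq2, 2 with no filter and 1 with either pair of numbers. For sex by state there were 1 with DESeq2, 2 with no filter and 2 with numbers 1 and 2 only, and for sex by genotype 2, 5, 1 and 1 with DESeq2, no filter, numbers 1 and 2 only and numbers 3 and 4 only. With 1 library left out genotype by state in females and sex by state ran from 0 to 1, and the others from 0 to 0. The members called for genotype, sex or interactions ran from 0 to 0 with 1 library left out. Depth limits Gpnmb and Igf1 most, with 142 and 53 reads in all.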
